A study of Rattus norvegicus with 14 samples.

Results

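Genes of cell division were followed in rat liver during feeding with orotic acid: Ccnd1, which encodes cyclin D1, Pcna, which encodes the sliding clamp of DNA replication, and Ccng1, which encodes cyclin G1. They were chosen by gene symbol, with earlier results of these data known. On the array 7 of the 4502 probe sets carry these symbols, 4 for Ccnd1, 2 for Pcna and 1 for Ccng1. All 3 genes are therefore measured, among 2670 genes with a probe set of a single symbol. A probe set is a group of short probes for 1 transcript on an Affymetrix array, hybridised here with biotin-labelled copies of total RNA from the left lateral lobe of the liver.

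The 14 arrays held RNA of rats from Charles River. Kyoto rats, a strain named only so in the labels, ate chow with 1% orotic acid for 1, 3 or 14 days (2 arrays at each time). Wistar rats ate it for 3 days (2 arrays) or 14 days (3 arrays), and 3 Wistar control arrays came from rats on standard chow. Orotic acid, an intermediate of pyrimidine synthesis, gives rats a fatty liver that reverses after feeding ends. Kyoto rats on standard chow and Wistar rats after 1 day were not analysed here, so every Kyoto value is from a fed animal and was compared with other feeding days or with fed Wistar rats.

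Most hepatocytes of an adult liver rest outside the cell cycle and can return to it, as after loss of liver tissue. Growth signals raise cyclin D1, which binds Cdk4 and Cdk6, and these kinases phosphorylate the retinoblastoma protein so that E2F factors can switch on genes of DNA synthesis. Pcna, one of those genes, encodes a ring that holds DNA polymerases on the template and also serves in DNA repair. Cyclin G1 is a target of p53 and is linked to DNA damage responses and growth control rather than to a fixed phase of the cycle.

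In the RefSeq annotation of the rat assembly GRCr8, Ccnd1 lies on chr1:209518288-209527986, Pcna on chr3:139951948-139955820 and Ccng1 on chr10:25678503-25684876. The 250 bases before the start of Pcna and of Ccng1 are printed from RefSeq (GRCr8, 5′ to 3′ on the gene's strand, the minus strand for both), because promoters of cell cycle genes often carry CCAAT boxes and GC boxes. Capitals mark these motifs and a TGACG match, as found on either strand. The search covered the CCAAT box, the GC box spelled GGGCGG, the E2F site spelled as TTTGGCGC or else as TTTCGCGC, the TGACG core of cAMP response elements and the E box spelled CACGTG.
Pcna, chr3:139955821-139956070: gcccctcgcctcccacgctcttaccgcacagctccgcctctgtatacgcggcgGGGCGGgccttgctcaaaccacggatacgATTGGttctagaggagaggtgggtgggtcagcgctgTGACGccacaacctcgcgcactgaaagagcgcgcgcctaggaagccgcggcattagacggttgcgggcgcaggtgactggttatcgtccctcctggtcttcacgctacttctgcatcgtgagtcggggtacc
Ccng1, chr10:25684877-25685126: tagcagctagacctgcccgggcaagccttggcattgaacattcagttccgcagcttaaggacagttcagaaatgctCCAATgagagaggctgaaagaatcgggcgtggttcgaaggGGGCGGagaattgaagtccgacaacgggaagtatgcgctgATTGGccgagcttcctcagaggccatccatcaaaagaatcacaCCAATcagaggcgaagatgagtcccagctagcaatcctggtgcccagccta

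The Pcna window holds GGGCGG 197 to 192 bases before the start, CCAAT on the other strand (read as ATTGG) 168 to 164 bases before it, and TGACG 132 to 128 bases before it. The Ccng1 window holds CCAAT 3 times, at 174 to 170, 94 to 90 (other strand) and 51 to 47 bases before the start, and GGGCGG at 134 to 129. None of these matches overlap. Of 33469 rat promoter windows of the same length, 34% hold CCAAT, 30.5% GGGCGG and 18.2% TGACG, while 0.412% hold TTTGGCGC, 0.248% TTTCGCGC and 5.59% CACGTG. A match describes the sequence and is not a measured binding site.

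One array stood apart from its label before any result is read. Wistar control 2 was most like Kyoto day 3 replicate 2 (r = 0.96 across features), and on 79 features that separate the fed strains it sat at 0.938 on a scale where fed Wistar rats are 0 and fed Kyoto rats 1, against 0.0898 and 0.0689 for Wistar controls 1 and 3. It is kept as labelled, and differences from control are also given without it. Median signals of the 14 arrays ran from 269.5 to 285.7. All 8 hepatocyte markers were measured on every array, with Alb, the albumin gene, between 21170 and 27070. The bile duct marker Epcam was at the floor on 14 of 14 arrays and Krt19 on 13 of 14.

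Ccnd1 was high in Kyoto livers early in feeding and lower at day 14. Probe set D14014_at read 575.6 and 1227 at day 1, 651.5 and 777.4 at day 3, and 267.8 and 360.2 at day 14, in normalised signal. Both day 14 arrays lay below all 4 earlier Kyoto arrays. How many features show this joint separation was not counted, and shares for pairs of groups are given below. In Wistar livers it read 213.6, 418 and 235.7 in controls, 520.3 and 275.3 at day 3, and 407, 312.8 and 237.2 at day 14. The Wistar groups overlapped each other, and the highest control was the array labelled Wistar control 2. By this probe set no Wistar array reached the lowest Kyoto array of day 1 or day 3, and the share of all features so separated was not counted. By another Ccnd1 probe set, X75207_s_at, they overlapped. There Kyoto day 3 replicate 1 read 167.6 and Wistar day 14 replicate 1 read 208.8.

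In log2 signal Ccnd1 averaged 8.28 ± 0.30 at day 14 and 9.48 ± 0.18 at day 3 in Kyoto livers (SD, n = 2 each). The difference was -1.20 ± 0.44 log2 (SE; 95% interval -2.13 to -0.26), or 2.29-fold lower, with an unadjusted p of 0.0158 and a limma adjusted p of 0.945 over all 1909 tested features. It did not pass the 0.05 threshold. No feature did in this comparison: limma called 0 of 1909 (0%) at the adjusted threshold and 88 (4.61%) at an unadjusted p under 0.05. Against day 1 the day 14 difference was -1.44 log2 (95% interval -2.37 to -0.50; 2.71-fold lower; limma adjusted p = 0.252), also without passing; limma called 1 of 1909 features there (0.0524%), and 194 (10.2%) at an unadjusted p under 0.05. Day 3 against day 1 gave -0.24 log2 (95% interval -1.17 to 0.69), within the spread of the arrays. In whole-liver RNA, fewer cells that hold a transcript and less of it per cell cannot be told apart.

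**Figure D1:**
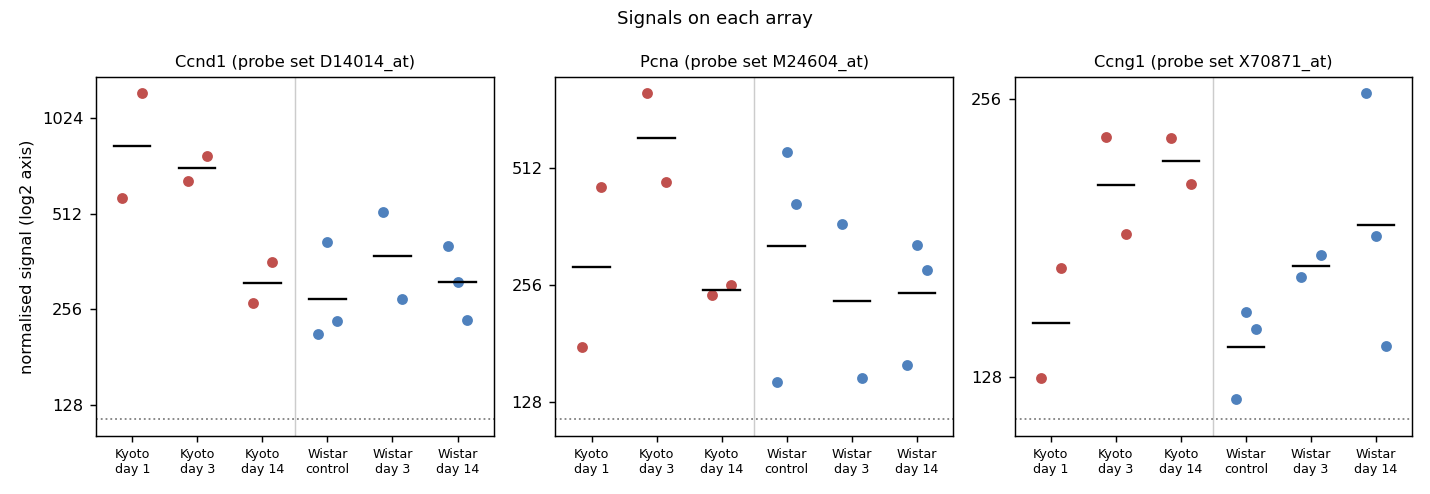
Normalised signal of Ccnd1, Pcna and Ccng1 (log2 axis) on each of the 14 arrays, with Kyoto groups in red, Wistar groups in blue, bars at the mean of log2 signal and a dotted line at the floor of 115. Ccnd1 sits at 267.8 and 360.2 on the Kyoto day 14 arrays against 651.5 and 777.4 on the day 3 arrays, Pcna peaks at Kyoto day 3, and Ccng1 stays between 121.2 and 259.8.

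Pcna was highest in Kyoto livers at day 3. Probe set M24604_at read 177.4 and 457.8 at day 1, 795.6 and 471.2 at day 3, and 241.5 and 255.5 at day 14. Both day 3 arrays lay above the other 4 Kyoto arrays, although the gap to the higher day 1 array was small. The share of all features with this joint separation was not counted either. In Wistar livers it read 144, 563 and 412.9 in controls, 367.4 and 147.6 at day 3, and 158.8, 324.9 and 280 at day 14. The Wistar values spread widely within each group, and the 563 belongs to the array labelled Wistar control 2.

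Pcna averaged 7.96 ± 0.058 log2 at day 14 and 9.26 ± 0.53 at day 3 in Kyoto livers (SD, n = 2 each), a difference of -1.30 ± 0.63 log2 (SE; 95% interval -2.65 to 0.05; 2.46-fold lower; limma adjusted p = 0.971). Day 3 against day 1 gave 1.10 log2 (95% interval -0.25 to 2.46; 2.15-fold higher; limma adjusted p = 0.797), and day 14 against day 1 gave -0.20 log2 (95% interval -1.55 to 1.15). Leaving out Kyoto day 1 replicate 1 brought the day 3 against day 1 difference to 0.42 log2. None of these passed, and limma called 0 of 1909 features (0%) in day 3 against day 1, with 112 (5.87%) at an unadjusted p under 0.05. RefSeq lists 3 Pcna pseudogenes in the rat, and the array data do not show which copy a probe binds.

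For both tested genes the Kyoto day 14 arrays lay below the day 3 arrays without overlap, as did 22.9% of all tested features. By the size of the difference, 0.471% of tested features had a lower difference than Ccnd1 and 0.157% a lower one than Pcna. Against day 1, Ccnd1 was lower at day 14 without overlap, as were 18.9% of tested features, and 0.367% of features had a lower difference. Pcna was higher at day 3 than at day 1 without overlap, as were 15.5% of tested features, and 99.6% of features had a lower difference. The first comparison shares its day 3 arrays with this last one, so a high day 3 value enters both. The genes were chosen with earlier results of these data known, so these ranks only describe them. Ranks by size also take no account of spread. The SD over the 14 arrays was at least that of 94.7% of tested features for Ccnd1 and 95.5% for Pcna.

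Ccng1 differed little between days 3 and 14 in Kyoto livers. Probe set X70871_at read 127.6 and 168.1 at day 1, 233.2 and 183.1 at day 3, and 232.4 and 207.1 at day 14. In Wistar livers it read 121.2, 150.6 and 144.3 in controls, 164.4 and 173.5 at day 3, and 259.8, 181.9 and 138.3 at day 14. Both Kyoto day 3 arrays lay above those at day 1, as for 15.5% of all tested features. Both Wistar day 3 arrays lay above all controls, as for 14.5% of tested features. Ccng1 was above the floor on all 14 arrays, but its mean lay under the filter that keeps the upper 60% of features, so it has no test here. Its day 14 minus day 3 difference in Kyoto livers was 0.09 log2, with a 95% interval of -0.52 to 0.69 from a fit of every probe set. The other differences from that fit were 0.50 log2 for Kyoto day 3 against day 1 (-0.11 to 1.10), 0.58 for Kyoto day 14 against day 1 (-0.02 to 1.19) and 0.44 for Wistar day 14 against control (-0.06 to 0.93).

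The remaining probe sets of Ccnd1 and Pcna give the same comparison with other probes. D14014_g_at, for Ccnd1, read 296.2 and 289.2 at Kyoto day 14 against 490.9 and 799.6 at day 3, without overlap (-1.10 log2, 95% interval -2.21 to 0.01). X75207_s_at read 168.2 and 124.8 at day 14 against 167.6 and 315 at day 3, which overlap (-0.67 log2, -1.49 to 0.15). The fourth Ccnd1 probe set, rc_AA957218_at, was under the floor on all 4 of these arrays and on 7 of 14 in all, so it gives no fold. M24604_g_at, for Pcna, read 178.2 and 193.3 at day 14 against 430.7 and 302.3 at day 3, without overlap (-0.96 log2, -1.73 to -0.19; limma adjusted p = 0.99). Its day 3 minus day 1 difference was 1.09 log2 (0.32 to 1.86; limma adjusted p = 0.665), with 1 day 1 array under the floor.

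**Figure D2:**
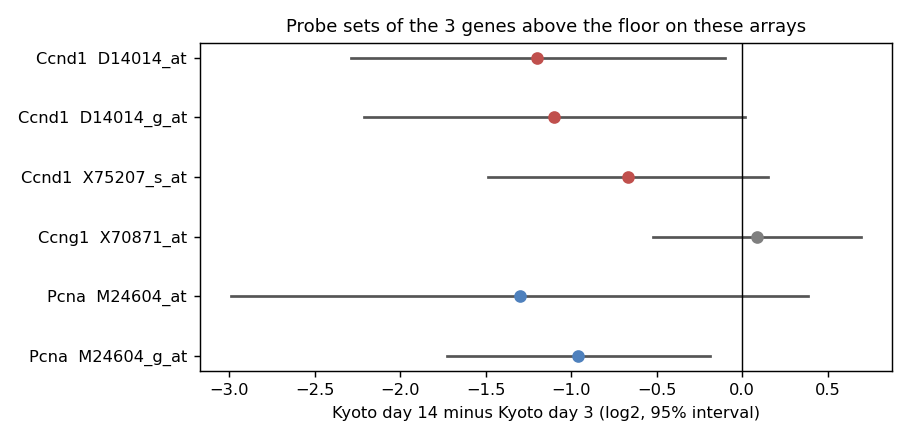
Difference in log2 signal, Kyoto day 14 minus Kyoto day 3, with 95% intervals from a limma fit of every probe set, for the 6 member probe sets above the floor on these arrays. The 3 Ccnd1 probe sets run from -1.20 to -0.67, the 2 Pcna probe sets are at -1.30 and -0.96, and Ccng1 is at 0.09; intervals here are wider for D14014_at and M24604_at than in the fit of 1 probe set per gene.

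Over the 14 arrays D14014_at correlated with D14014_g_at at r = 0.821, with X75207_s_at at 0.708 and with rc_AA957218_at at -0.294, and the 2 Pcna probe sets with each other at 0.81. These describe arrays that share groups and scaling. Ccnd1 and Pcna, each by its tested probe set, correlated at 0.506, and Ccng1 at 0.201 with Ccnd1 and 0.146 with Pcna. Differences between the 6 groups made up 72.3% of the variation of Ccnd1, 57.2% of that of Ccng1 and 37.2% of that of Pcna, where the median over all tested features was 45.2%. For Pcna the second probe set gave 65.6%.

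By group mean of D14014_at, Ccnd1 ran in the order Kyoto day 1, Kyoto day 3, Wistar day 3, Wistar day 14, Kyoto day 14 and Wistar control. The widest step, Kyoto day 3 over Wistar day 3, was 0.91 log2 (95% interval -0.02 to 1.85). Its arrays were apart, and those of every other pair of neighbours overlapped. Neighbours were picked by sorting the means, and the share of all features apart at this step was not counted. By X75207_s_at the step of Kyoto day 3 over Wistar day 3 was 0.48 log2, with overlapping arrays. D14014_g_at put Kyoto day 3 first and Wistar day 3 last. By M24604_at, Pcna ran in the order Kyoto day 3, Wistar control, Kyoto day 1, Kyoto day 14, Wistar day 14 and Wistar day 3. All its neighbours overlapped, the top step being 0.93 log2 (-0.31 to 2.16). By M24604_g_at the same step, Kyoto day 3 over Wistar control, was 0.64 log2 (-0.06 to 1.35). Its arrays were apart, again with no share over all features counted. Ccng1 ran from Kyoto day 14 and Kyoto day 3 through Wistar day 14, Wistar day 3 and Kyoto day 1 to Wistar control, and no pair of neighbours was apart.

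In Wistar rats neither tested gene passed after feeding. Ccnd1 differed from control by 0.45 log2 at day 3 (95% interval -0.40 to 1.31; limma adjusted p = 0.746) and 0.17 at day 14 (-0.59 to 0.94; limma adjusted p = 0.992). Without Wistar control 2 these were 0.75 and 0.47. Other Ccnd1 probe sets did not share one direction at day 3, with -0.49 log2 for D14014_g_at (-1.50 to 0.53) and 0.20 for X75207_s_at (-0.55 to 0.95). Pcna differed from control by -0.47 log2 at day 3 (limma adjusted p = 0.835) and by -0.40 at day 14 (-1.51 to 0.70; limma adjusted p = 0.992). Without Wistar control 2 these were -0.066 and -0.0016. With Wistar control 2 kept, the second Pcna probe set, M24604_g_at, gave -0.31 log2 at day 3 (-1.01 to 0.39) and -0.45 at day 14 (-1.08 to 0.18). Day 14 minus day 3 was -0.28 log2 for Ccnd1 (-1.13 to 0.57) and 0.06 for Pcna. At the adjusted threshold limma called 0 of 1909 features (0%) in each of these comparisons. At an unadjusted p under 0.05 it called 200 (10.5%) at day 3 against control, 99 (5.19%) at day 14 against control and 85 (4.45%) at day 14 against day 3. For Ccng1, the Wistar day 3 arrays lay above the controls, as did 14.5% of tested features, with differences from control of 0.35 log2 at day 3 and 0.50 at day 14 when Wistar control 2 was left out. A lot batch of 1 is recorded for 11 arrays, while 3 Wistar arrays carry no lot. On lot batch 1 arrays alone, the day 3 and day 14 differences from control were 0.80 and 0.26 log2 for Ccnd1 and 0.37 and -0.33 for Pcna. That leaves 1 Wistar day 3 array and 2 controls, of which 1 is Wistar control 2, so the day 3 values rest on a single fed array.

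Whether the day 3 to day 14 difference itself differed between the strains was tested as an interaction, Kyoto minus Wistar. It was -0.91 log2 for Ccnd1 (95% interval -2.18 to 0.35; limma adjusted p = 0.875 by D14014_at) and -1.37 for Pcna (-3.20 to 0.46; limma adjusted p = 0.875). The second Ccnd1 probe set, D14014_g_at, gave -1.69 log2 (-3.19 to -0.18; unadjusted p = 0.0323; limma adjusted p = 0.888 in the fit of every probe set), with 1 Wistar day 3 array under the floor. None of these passed, as no feature did (0 of 1909 or 0%, with 99 or 5.19% at an unadjusted p under 0.05), so a difference between the strains in this respect was not shown. Averaged over days 3 and 14, fed Kyoto minus fed Wistar livers gave 0.45 log2 for Ccnd1 (-0.18 to 1.09; limma adjusted p = 0.555) and 0.71 for Pcna (-0.20 to 1.63; limma adjusted p = 0.506). Here limma called 62 of 1909 features (3.25%), neither gene among them. These strain differences were 0.21 and 0.69 with lot batch as a block, and 0.13 and 0.43 on lot batch 1 arrays alone. The block treats the 3 arrays without a recorded lot as another lot, which the labels do not state. In the fit of every probe set, D14014_g_at gave 0.86 log2 for Ccnd1 (0.11 to 1.61; limma adjusted p = 0.322). M24604_g_at gave 0.54 for Pcna there (0.02 to 1.06; limma adjusted p = 0.392), and neither passed.

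Cyclin D1 has close relatives, which can also bind Cdk4. Ccnd2, which encodes cyclin D2, read 91.2 and 144.2 at day 3 and 86.2 and 96.2 at day 14 in Kyoto livers, against 332.3 and 296.9 at day 3 and 291.8, 314.5 and 432.9 at day 14 in Wistar livers. All 4 fed Kyoto arrays lay below all 5 fed Wistar arrays, as for 3.77% of tested features, and 3 of the 4 were under the floor of 115. With values under the floor set to it, the fed Kyoto minus fed Wistar difference was -1.43 ± 0.28 log2 (SE; limma adjusted p = 0.0136, where 1.99% of features were called lower). The gene entered the test only through its Wistar signals, since its Kyoto means lay at or near the floor, so this call is not independent of the filter on low features. Kyoto day 1 arrays read 150.5 and 47.8, and Wistar controls 204, 145.1 and 435.7, of which 145.1 is the array labelled Wistar control 2. The call was lost with no filter on low features (limma adjusted p = 0.0748) and with lot batch as a block (-1.16 log2, limma adjusted p = 0.054). It was also lost without Kyoto day 3 replicate 1 (0.0665), Kyoto day 14 replicate 1 (0.0736) or 2 (0.0555), or Wistar day 3 replicate 1 (0.0622) or 2 (0.0558), each value being the limma adjusted p.

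Ccnd3, which encodes cyclin D3, read 304.2 and 309.8 at day 14 against 400 and 547.1 at day 3 in Kyoto livers, a difference of -0.61 ± 0.29 log2 (SE; limma adjusted p = 0.971). Its second probe set, D16309_at, gave -0.29 log2 with overlapping arrays. Cdk4, the kinase partner of the D-type cyclins, read 310.7 and 377.6 at day 14 against 403.8 and 592.3 at day 3 (-0.51 ± 0.37 log2, SE; limma adjusted p = 0.98). By these probe sets the 2 groups did not overlap for either gene, as for 22.9% of all tested features.

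**Figure D3:**
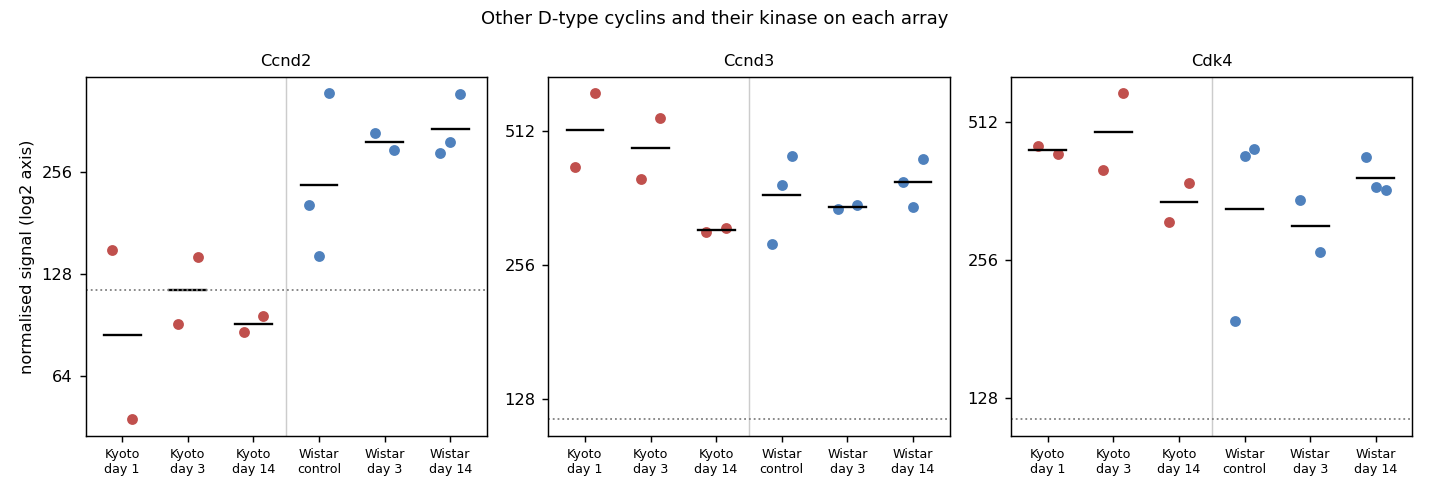
Normalised signal of Ccnd2, Ccnd3 and Cdk4 (log2 axis) on each array, with Kyoto groups in red, Wistar groups in blue, bars at the mean of log2 signal as measured and a dotted line at the floor of 115, under which points have no order. Ccnd2 sits at or below 144.2 on all fed Kyoto arrays of days 3 and 14 against 291.8 or more on the fed Wistar arrays, while Ccnd3 and Cdk4 read lowest among Kyoto groups at day 14.

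The wider machinery was described with 5 gene lists in the Kyoto day 14 against day 3 comparison, in which 0 members of any list passed. Of 24 cyclins and Cdks, 4 were tested. Ccnd1, Ccnd3 and Cdk4 had a lower mean at day 14, as did 52.6% of all tested features, whose median was -0.02 log2. Ccnd2, the other one, was under the floor on both day 14 arrays and 1 of the day 3 arrays and gives no direction. Of 31 genes of DNA replication and nucleotide supply, 3 were tested, 1 higher and 2 lower (median -0.24). Rpa3, a subunit of the single-strand binding protein, was at -0.24 and Top1, topoisomerase I, at 0.005. Of 21 genes of mitosis and chromatin packing, 4 were tested, 1 higher and 3 lower (median -0.65).

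Tubb5, a beta tubulin, was the mitosis list member with the lowest difference. It read 918.9 and 1034 at day 14 against 2353 and 1596 at day 3 (-0.99 ± 0.36 log2, SE; limma adjusted p = 0.945). Tuba1b, an alpha tubulin, read 2078 and 2742 against 4886 and 3104 (-0.71 ± 0.32 log2, SE; limma adjusted p = 0.971). For both tubulins the groups did not overlap, as for 22.9% of all tested features. H2az1, a histone variant, was at -0.60 and Hmgb1, a chromatin protein, at 0.27. Both tubulins also serve the cytoskeleton of resting cells.

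Of 25 Cdk inhibitors and p53 targets only 2 were tested, Btg1, an antiproliferative gene, at -0.35 log2 and Gadd45a, a DNA damage response gene, at 0.36. Of 33 growth signals and immediate early genes, 12 were tested, 3 higher and 9 lower (median -0.29). Over all tested features 52.6% were lower (median -0.02). Igfbp1, a secreted binder of insulin-like growth factors, read 329.4 and 433.4 at day 14 against 2198 and 877 at day 3 (-1.88 ± 0.86 log2, SE; limma adjusted p = 0.971). Igf1, a liver-made growth factor, was at -0.34, Map2k2, a kinase of the MAP kinase cascade, at -0.45 and Id2, an inhibitor of helix-loop-helix factors, at 0.02.

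**Figure D4:**
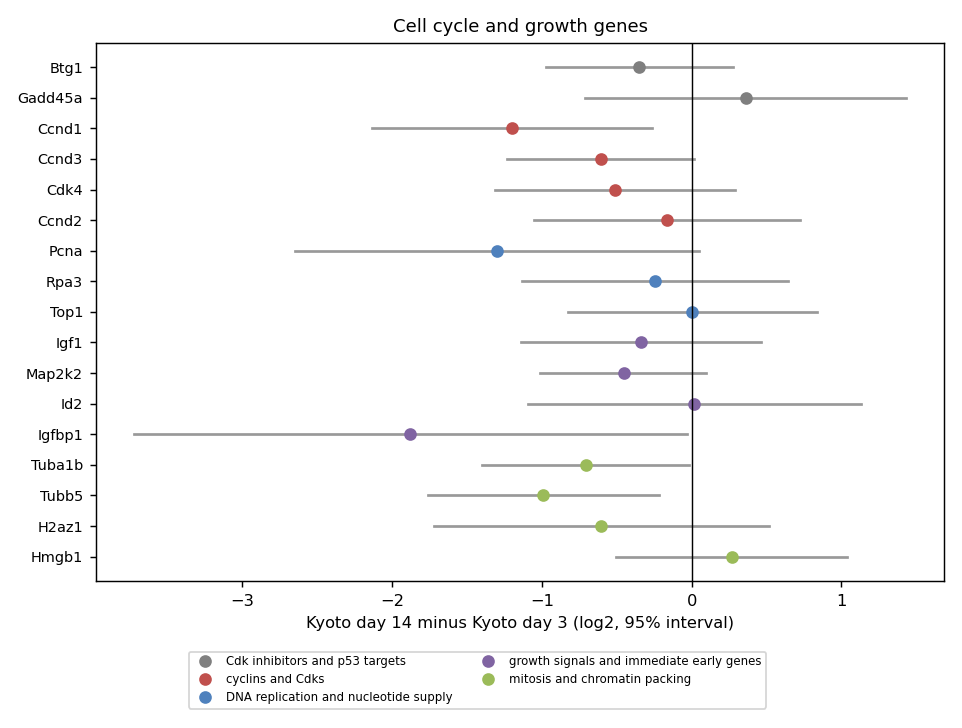
Difference in log2 signal, Kyoto day 14 minus Kyoto day 3, with 95% intervals from limma, for the up to 4 tested genes of highest mean signal in each of 5 lists (colours). Ccnd1 at -1.20, Pcna at -1.30 and Igfbp1 at -1.88 lie furthest to the left, and no gene passed at the adjusted threshold.

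Markers of other liver cells are given beside these values, as summed normalised signals in Kyoto livers at day 14 against day 3. Hepatocyte markers (8 of 8 measured) ran 126300 to 130000 against 135700 to 140600, stellate cell and fibroblast markers (9 of 12) 9334 to 9471 against 7091 to 9421, and Kupffer cell markers (5 of 11) 4946 to 5962 against 5440 to 6602. Lymphocyte markers (3 of 11) ran 387.9 to 450.6 against 291.6 to 537.9, with Cd5 at the floor on 13 of 14 arrays. Bile duct markers (3 of 6) ran 3237 to 3518 against 3353 to 4536, endothelial markers (2 of 8) 390.2 to 474.1 against 322.1 to 336.4, and blood markers (2 of 4) 6746 to 12450 against 8870 to 11710. The bile duct sum is nearly all Krt18 (1962 to 5141 over the 14 arrays), with Krt19 and Epcam at the floor as given above. It rests on 1 gene and is not a measure of bile duct cells. In the endothelial sum Pecam1 was at the floor on 10 of 14 arrays. Both day 14 arrays had a lower hepatocyte sum and a higher endothelial sum than either day 3 array. How often sums of other features separate in this way was not counted. Among hepatocyte markers Apoa1, an apolipoprotein gene, averaged 12.99 log2 at day 14 and 14.22 at day 3. It differed by -1.24 log2 (limma adjusted p = 0.713), while the median of the 8 was -0.0052. The lower hepatocyte sum therefore rests mainly on 1 gene and is not a measure of hepatocyte content. Among 7 tested stellate cell and fibroblast markers, 5 had a lower mean and 2 a higher one (median -0.44 log2), and none passed. A lower mean was found for 52.6% of all tested features. The collagen gene Col3a1 was at -0.85, Col1a2 at -0.82, the proteoglycan gene Bgn at -0.71 and Igfbp3 at -0.44. Each of these was lower without overlap, as were 22.9% of all tested features. Sparc, which has the highest signal of the list, was at 0.77 and Col1a1 at 0.64. The part of these markers in the values of Ccnd1 and Pcna was not tested.

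Across all 14 arrays the tested features most like Ccnd1 were Txnip (Pearson r = 0.855), which encodes a thioredoxin-binding protein, Cd47 (0.79), a cell surface receptor gene, and Akr1a1 (0.761), an aldehyde reductase gene. Aqp8, a water channel gene, ran most opposite (-0.847). For Pcna the most alike were Krt8 (0.775), a hepatocyte keratin gene, Ndufb10 (0.731), of mitochondrial complex I, and C3 (0.714), of the complement system, with Itih4 most opposite (-0.836). For Ccng1 they were Spink1l (0.853), Hpd (0.817), an enzyme of tyrosine breakdown, and Lipa (0.772), the lysosomal acid lipase, with Apoa4, an apolipoprotein gene, most opposite (-0.829). These are the extremes among 1502 named features on arrays that share groups, and they are given as a description only.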

How the data were processed

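The authors deposited 1 table of unlogged intensity values per probe set. The submitters' processing notes name MAS5, and its version and scaling target were not stated there. Of 4502 rows, 375 had no value on at least 1 array and 24 were control probe sets; these were left out. Probe sets were named from the platform annotation (3700 with 1 symbol, 229 with several, 573 with none).

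Log2 signals were quantile normalised between arrays and set to a floor at the 25th percentile (115; 6.85 log2). Printed array signals are before the floor; means and differences are after it. Each gene was represented by its probe set of highest mean. Of 3181 features, the upper 60% by mean (1909) were tested with limma 3.58.1 in R 4.3.3: all 14 arrays, 6 group means, 8 residual degrees of freedom, eBayes with an intensity trend, Benjamini-Hochberg threshold 0.05, 8 comparisons. The model was tested on simulated data. The labels do not say outright that each array was a separate animal, so p-values measure the spread between these arrays. Few arrays limit the precision.

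The members and gene lists were chosen with earlier results of these data known. Named list genes are the up to 4 tested members of highest mean, plus any past the threshold. Alternatives covered normalisation, floor, filter, testing every probe set, lot batch, arrays fitted, variance model, array weights and leaving out single arrays. In each of them a gene was still read from its probe set of highest mean. The fits on lot batch 1 arrays and on the 11 arrays without blank rows were chosen after seeing the data.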

Additional observations from a re-analysis of the deposited data

How the results depend on the processing

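With the groups apart, neither leaving out 1 array nor array weights could change the sign of the Kyoto day 14 minus day 3 difference. The filter, lot batch, arrays fitted and variance model settings do not alter the difference itself. For both tested genes this difference stayed below 0 under every alternative run, which is therefore little test of it. For Ccnd1 it ran from -1.41 to -0.98 with single arrays left out and from -1.21 to -1.20 otherwise, with a smallest limma adjusted p of 0.189. For Pcna it ran from -1.68 to -0.92 and from -1.33 to -1.30, with a smallest adjusted p of 0.21. For Ccng1, leaving out arrays gave -0.088 to 0.261. Each gene kept its probe set of highest mean here, so these ranges leave out the other probe sets. As given above, D14014_g_at gave -1.10 and X75207_s_at -0.67 for Ccnd1, and M24604_g_at gave -0.96 for Pcna. The cause of the changes below was not tested.

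With single arrays left out, other differences changed sign. Ccnd1 gave -0.79 to 0.306 for Kyoto day 3 against day 1 (0.306 without Kyoto day 1 replicate 2), -0.0041 to 0.914 for Wistar day 3 against control, -0.0196 to 0.473 for Wistar day 14 against control and -0.74 to 0.178 for Wistar day 14 against day 3. Pcna gave -0.88 to 0.486 for Kyoto day 14 against day 1, -1.13 to 0.189 for Wistar day 3 against control and -0.59 to 0.722 for Wistar day 14 against day 3. For Pcna in Kyoto day 3 against day 1 the range was 0.419 (without Kyoto day 1 replicate 1) to 1.79 (without replicate 2), and for Ccnd1 in Kyoto day 14 against day 1 it was -1.98 to -0.89. In Kyoto day 14 against day 3 the ranges were -0.32 to 0.331 for Top1, -0.062 to 0.784 for Gadd45a, -0.88 to 0.203 for Igf1, -0.46 to 0.497 for Id2 and -0.12 to 0.65 for Hmgb1. Pcna in Wistar day 14 against day 3 gave -0.0698 with array weights, -0.69 on lot batch 1 arrays and -0.036 on arrays without blank rows, and in Wistar day 3 against control 0.368 on lot batch 1 arrays.

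Counts of called features moved more. With no filter they were 1, 2, 3 and 1 for Kyoto day 14 against day 3, day 3 against day 1, day 14 against day 1 and fed Kyoto against fed Wistar. The strain count was 40 with the upper 40% of features, 20 with a lot batch block, 103 with only the groups compared, 135 with array weights and 21 on lot batch 1 arrays. Kyoto day 14 against day 1 gave 4 with every probe set tested and 0 with only the groups compared, array weights or lot batch 1 arrays. Array weights gave 1 for Kyoto day 14 against day 3. Wistar day 3 against control gave 1 with every probe set, 5 with only the groups compared, 18 with array weights, 1 on lot batch 1 arrays and 8 on arrays without blank rows. Wistar day 14 against control gave 1, 3 and 5 under the last 3 of these. Kyoto day 3 against day 1 gave 1 on arrays without blank rows. With single arrays left out the counts ran from 0 to 1 for Kyoto day 14 against day 3, 0 to 74 for day 3 against day 1, 0 to 160 for day 14 against day 1 (both highest without Kyoto day 1 replicate 2), 0 to 6 and 0 to 7 for Wistar days 3 and 14 against control, and 12 to 91 between the strains (12 without Kyoto day 14 replicate 1). Without Kyoto day 1 replicate 2 that group is replicate 1 alone, the array with the lowest median correlation with the others. No paired analysis was possible because the labels number no replicates; those used here follow accession order. Ccnd2 failed the filter with no floor and with the upper 40% of features.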

Other observations

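Jun, an immediate early transcription factor gene of the growth signal list, was singled out after its values were seen because it ran against Ccnd1 and Pcna in Kyoto livers. It read 452.8 and 707.3 at day 14 against 247.6 and 106.6 at day 3, with 1 day 3 array under the floor (1.74 ± 0.47 log2, SE; limma adjusted p = 0.713). The difference of Kyoto from Wistar rats in this respect was 2.38 ± 0.63 log2 (SE; limma adjusted p = 0.834). Neither passed.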
